A study of Mus musculus with 15 samples.

Results

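Cavin2 encodes a protein of caveolae, and the values given here are its row in a table that also holds 3510 other mouse genes. The row was found by its symbol, and this 1 gene is described in all 15 liver libraries of 5 groups. The table holds only genes that its authors had called different between CCl4 and oil, and Cavin2 was selected on its normalised counts in these libraries, with its lower values in the groups given vesicles known. Its differences between CCl4 and oil, and between mice with and without vesicles under either, are therefore given as a description with a standard error (SE) and with no test.

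All mice were male Swiss Webster mice, 4 to 5 weeks old at the start, and RNA came from whole liver of 3 mice in each group. Untreated mice were littermates with no injections. Oil mice received 30 μl of corn oil per 25 g body weight by intraperitoneal injection 3 times a week for 5 weeks, and CCl4 mice received 4 μl of CCl4 in corn oil on the same schedule. CCl4 becomes toxic through its metabolism in hepatocytes, and repeated doses lead to liver fibrosis. The groups oil + EVNorm and CCl4 + EVNorm were given in addition 80 μg per 25 g of EVNorm, extracellular vesicles from AML12, a line of mouse hepatocytes, 3 times a week on alternate days during the last 2 weeks. The vesicles thus came from 1 cell line, and whether mice without vesicles received a matching vehicle injection is not given in the sources used here. Livers were taken 36 h after the last injection of CCl4 or oil.

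Caveolae are small flask-shaped pits of the plasma membrane that are abundant in endothelial cells, adipocytes and muscle cells. Their shape comes from caveolins, which insert into the membrane, and from cavins, which form a coat on its inner face. Cavin1 is needed for caveolae to form, and Cavin2 (also called serum deprivation response protein, Sdpr) binds phosphatidylserine and protein kinase C, curves the membrane, and joins the coat through Cavin1. Ehd2 is an ATPase at the neck of caveolae that holds them at the surface. In the liver, caveolae are known mostly from the endothelium of larger vessels and sinusoids and from stellate cells, and healthy hepatocytes hold few caveolins.

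Cavin2 (ENSMUSG00000045954) lies on chromosome 1 from 51289126 to 51302960 on the plus strand of GRCm38, with 1 annotated transcript of 2 exons, from 51289126 to 51289868 and from 51300649 to 51302960. The exons hold 3055 bases, of which 1254 are coding. An antisense gene, 9330175M20Rik, spans the locus from 51218386 to 51333779 but shares 0 exon bases with Cavin2. The libraries were stranded, but the strand setting of the counting is not given in the sources used here.

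The stretch of 250 bases before the transcript start of Cavin2 is printed because the gene's level differed between groups, with that of Dnajb1, a heat shock protein gene described further on whose values were also lower with vesicles in both settings. RefSeq lists 2 starts for Dnajb1, of which the first is shown. The Cavin2 sequence is chr1:51288876-51289125 and the Dnajb1 sequence chr8:83607925-83608174, both on the plus strand, from RefSeq on GRCm38.p6, and capitals mark the letters CCAAT, which appear as ATTGG when they lie on the other strand.
Cavin2: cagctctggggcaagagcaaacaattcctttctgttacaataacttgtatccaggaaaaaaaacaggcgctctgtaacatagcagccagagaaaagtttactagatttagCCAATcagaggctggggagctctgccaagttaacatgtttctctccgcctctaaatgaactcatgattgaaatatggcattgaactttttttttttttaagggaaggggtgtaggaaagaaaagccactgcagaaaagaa
Dnajb1: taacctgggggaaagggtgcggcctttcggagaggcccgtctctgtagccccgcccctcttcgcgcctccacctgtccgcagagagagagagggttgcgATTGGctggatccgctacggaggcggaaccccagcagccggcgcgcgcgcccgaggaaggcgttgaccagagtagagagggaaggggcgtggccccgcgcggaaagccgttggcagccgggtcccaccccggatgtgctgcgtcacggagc
The Cavin2 stretch had a GC content of 40.4% against a median of 52.4% over promoters of the same length, while that of Dnajb1 had 69.6%. CCAAT, a motif of many mammalian promoters, had 1 match in each, 140 bases before the Cavin2 start and 151 bases before that of Dnajb1, and was present on either strand in 33.8% of 32536 promoters. GGAA, the core letters bound by ETS factors, had 4 matches in Cavin2 and 5 in Dnajb1, against at least 1 in 93.4% of promoters. No match to GAANNTTC, the paired unit bound by heat shock factors, stood in either window (6.7% of promoters), and the Cavin2 window also held no TATAAA (12.3%) and no CArG box (1.5%). All motifs were searched on both strands, GAANNTTC and the CArG box can share letters with GGAA, and the motifs were chosen with the expression values known.

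The level of Cavin2 was highest in untreated liver and lowest in CCl4 + EVNorm liver. Values are normalised read counts, that is reads scaled by the size factor of their library, and the 15 values rested on 326 to 720 reads each. In untreated mice Cavin2 had 773.7, 656.7 and 901.3 normalised counts, and in oil mice 599.7, 647.7 and 693.7. These groups overlapped, as the lowest untreated mouse lay below the highest oil mouse. In oil + EVNorm mice the values were 437.2, 353.7 and 379.1, all below every oil mouse. In CCl4 mice they were 401.8, 445.3 and 460.8, and in CCl4 + EVNorm mice 307.7, 282.2 and 293.3. All CCl4 + EVNorm mice were thus lower than all 12 other mice.

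**Figure D1:**
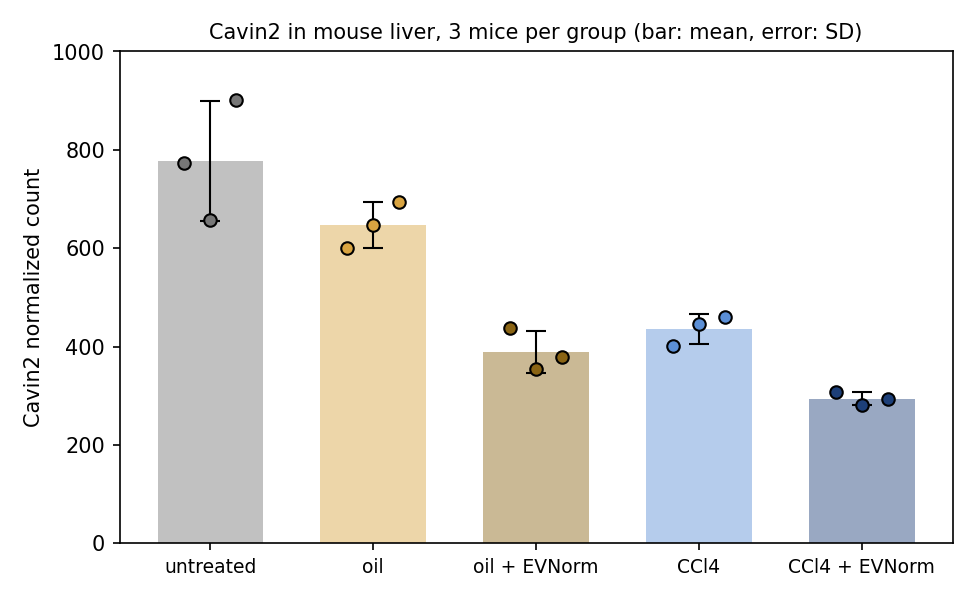
Normalised read counts of Cavin2 (y axis, from 0) in each of the 15 mice (points) by group (x axis), with bars for group means and error bars for ± 1 SD over 3 mice. Group means step down from 777 in untreated to 647 in oil, 436 in CCl4, 390.0 in oil + EVNorm and 294 in CCl4 + EVNorm, and the CCl4 and oil + EVNorm points share a range.

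As group means, Cavin2 had 777 ± 122 normalised counts in untreated (SD, n = 3), 647 ± 47.0 in oil (n = 3), 436 ± 30.6 in CCl4 (n = 3), 390.0 ± 42.8 in oil + EVNorm (n = 3) and 294 ± 12.8 in CCl4 + EVNorm (n = 3). In this order untreated and oil overlapped, and so did CCl4 and oil + EVNorm, whereas oil lay wholly above CCl4 and oil + EVNorm wholly above CCl4 + EVNorm. Relative to the untreated mean the oil mean was 83.2%, the CCl4 mean 56.1%, the oil + EVNorm mean 50.2% and the CCl4 + EVNorm mean 37.9%. The spread between mice was widest in untreated liver, with a coefficient of variation of 15.7%, and narrowest in CCl4 + EVNorm liver, with 4.34%. There the SD of 12.8 was below the 15.4 that counting error alone gives on average, and in each of the other 4 groups the SD was larger than the counting error.

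Under oil, where vesicles were given to liver not exposed to CCl4, the oil + EVNorm mean of Cavin2 was 60.3% of the oil mean. The log2 fold change was -0.73 (SE 0.14) on log2(normalised count + 1), from a limma fit over all 15 libraries. All 3 values were below all 3 oil values, as they were for 23.1% of all genes of the table, and nothing is read from this since the comparison entered the choice of the gene. In absolute terms the means were 257 normalised counts apart. Scaled by the reads of the table in place of the size factors, the log2 fold change was -0.48.

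Under CCl4, the comparison that asks how vesicles change liver under continued injury, the CCl4 + EVNorm mean of Cavin2 was 67.5% of the CCl4 mean. The log2 fold change was -0.56 (SE 0.14), and the means were 142 normalised counts apart. Again all 3 values lay below all 3 values of the group without vesicles, which held for 20.0% of genes in this comparison.

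The vesicle difference of Cavin2 was thus somewhat larger under oil than under CCl4, by 0.17 on the log2 scale, but with an SE of 0.19 for the difference itself this is within 1 SE, and when scaled by the reads of the table it turned to -0.03. The comparisons share no library. Between CCl4 and oil the mean was 67.4% with a log2 fold change of -0.57 (SE 0.14) and no overlap, as for 50.7% of the genes of a table chosen on this comparison, so that CCl4 alone and vesicles added to CCl4 went with nearly equal proportions. If the proportions of CCl4 alone (67.4%) and vesicles alone (60.3%) multiplied, CCl4 + EVNorm would stand at 40.6% of oil, or 263 normalised counts, and the measured mean was 45.5%, or 294. Within vesicle-treated mice, CCl4 + EVNorm differed from oil + EVNorm by a log2 fold change of -0.40 (SE 0.14).

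The size of the CCl4 difference depended on scaling, and the table holds only genes called between CCl4 and oil. Scaled by the reads of the table in place of the authors' size factors, the log2 fold change of Cavin2 was 0.00 between CCl4 and oil, which moved the median of all genes by 0.57. Relative to that median Cavin2 stood at -0.25 under either scaling. Since every gene of the table was called between CCl4 and oil, neither this median nor the reads of the table is a neutral reference. No corrected CCl4 difference is read from them. Relative to the median of all genes the vesicle differences were -0.50 under CCl4 with either scaling, and -0.65 under oil.

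Oil injections alone were compared with no injections as a comparison outside the choice of the gene, although the oil libraries also serve in comparisons that were part of it. The log2 fold change of Cavin2 was -0.25 (SE 0.14) and did not pass the test, with an adjusted p of 0.390 (limma, two-sided, Benjamini-Hochberg over all genes of the table, n = 3 against 3). Of all genes 0.911% passed in this comparison. Leaving out single mice gave log2 fold changes from -0.37 to -0.14.

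The other caveolar genes of the table did not show the pattern of Cavin2. Of 17 other genes on a list of caveolins, cavins and associated proteins, 2 were in the table, and the other 15, among them all caveolins, were not analysed here. Neither of the 2 passed the test for vesicles under CCl4, where 5.67% of all genes did, nor under oil, where 0.228% did. Unadjusted, 0 had a p under 0.05, against 15.9% of all genes under CCl4 and 21.7% under oil. By edgeR 0 were called, against 6.61% and 0.00%, and by DESeq2 0, against 8.72% and 2.93%. The median log2 fold change over these genes was -0.14 under CCl4, against -0.07 over all genes, and -0.10 under oil, against -0.08.

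Cavin1, the coat protein that Cavin2 needs to reach caveolae, had 118.3, 133.7 and 142.5 normalised counts in oil mice and 188.7, 213.4 and 205.6 in CCl4 mice, so it was higher with CCl4 where Cavin2 was lower. With vesicles Cavin1 had 125.1, 110.1 and 141.9 under oil and 209.8, 174.8 and 189.6 under CCl4, overlapping the groups without vesicles in both cases. Its log2 fold changes were -0.07 (SE 0.17, limma adjusted p = 0.810) under oil and -0.08 (SE 0.17, adjusted p = 0.887) under CCl4. Ehd2 at the caveolar neck was lower in counts, with 30.6, 34.8 and 58.2 in oil mice and 60.4, 89.1 and 83.8 in CCl4 mice. With vesicles Ehd2 had log2 fold changes of -0.14 (SE 0.30, adjusted p = 0.771) under oil and -0.19 (SE 0.30, adjusted p = 0.829) under CCl4. When scaled by the reads of the table the oil values turned positive, to 0.19 for Cavin1 and 0.11 for Ehd2, and neither was called.

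Per kilobase of exon, Cavin2 was the most abundant of these 3 genes in every group, with mean levels of 212 normalised counts per kilobase in oil and 96.4 in CCl4 + EVNorm. Cavin1 had 36.7 in oil and 53.4 in CCl4 + EVNorm, and Ehd2 8.0 and 13.2. The ratio of Cavin2 to Cavin1 per kilobase, which does not depend on the scaling of a library, was 5.43 ± 0.304 in untreated and 5.79 ± 0.145 in oil mice (SD, n = 3 each). It was 3.67 ± 0.491 in oil + EVNorm, 2.53 ± 0.094 in CCl4 and 1.81 ± 0.087 in CCl4 + EVNorm mice. The highest ratio in CCl4 + EVNorm mice was 1.90 and the lowest in CCl4 mice 2.45. The lowest ratio in oil + EVNorm mice was 3.14 and the highest in CCl4 mice 2.63, groups in which Cavin2 itself overlapped and Cavin1 was higher with CCl4. The ratio holds the Cavin2 values on which the gene was chosen, so nothing is read from these separations.

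**Figure D2:**
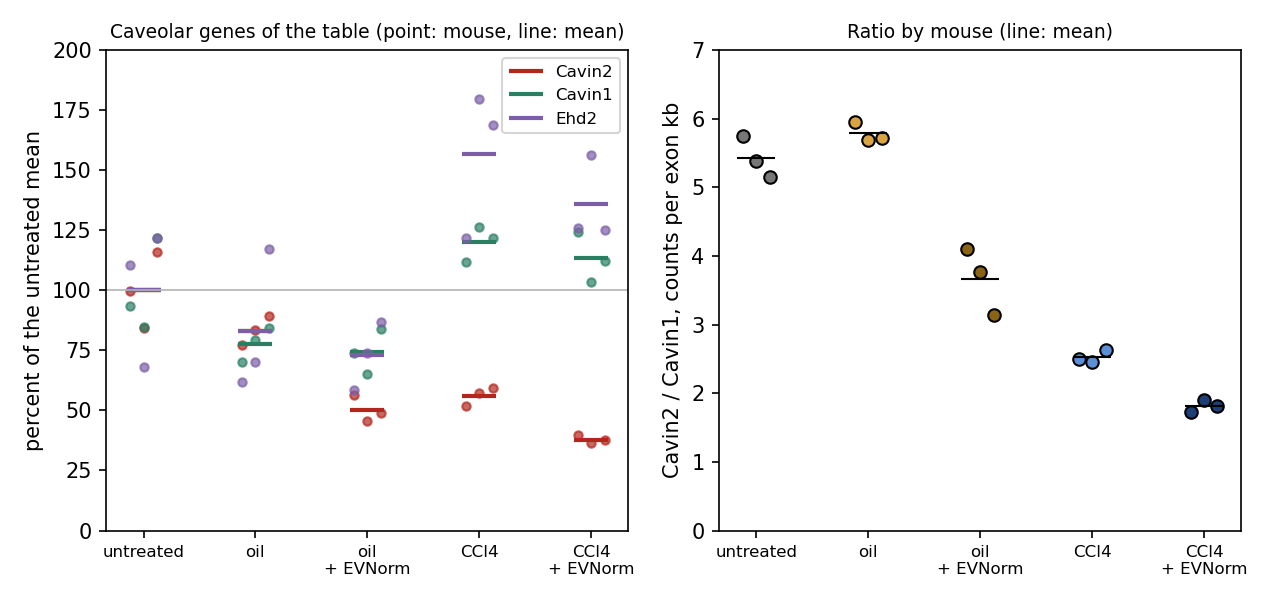
Left, normalised read counts of Cavin2, Cavin1 and Ehd2 as percent of each gene's untreated mean (y axis) by group (x axis), with a point for each mouse and a line for the mean of 3 mice. Right, the ratio of Cavin2 to Cavin1 per kilobase of exon in each mouse, with lines for means that go from 5.79 in oil to 1.81 in CCl4 + EVNorm. Cavin2 is lower with CCl4 and with vesicles, while Cavin1 and Ehd2 are higher in the CCl4 groups and overlap between mice with and without vesicles.

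Whole liver holds several cell types, and fewer cells of a type cannot be told apart from less RNA per cell. Endothelial markers were therefore set beside Cavin2. Of 51 markers of the endothelium of all vessels, 5 were in the table. None passed the limma test for vesicles under CCl4 or under oil, against 5.67% and 0.228% of all genes. Before adjustment 3 had a p under 0.05 in CCl4 mice, against 15.9% of all genes, and 2 in oil mice, against 21.7%. Under CCl4 edgeR called 1, against 6.61% of all genes, and DESeq2 called 1, against 8.72%. Under oil both called 0, against 0.00% of all genes with edgeR and 2.93% with DESeq2. All 5 log2 fold changes were below 0 in both comparisons, with medians of -0.39 under CCl4 and -0.22 under oil.

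Gpihbp1, which carries lipoprotein lipase to the capillary lumen, had the largest difference of the 5 in both settings. It had 326.2, 315.2 and 343.3 normalised counts in oil and 219.8, 245.5 and 213.9 in oil + EVNorm mice, and 223.8, 191.2 and 253.3 in CCl4 and 146.4, 135.6 and 158.5 in CCl4 + EVNorm mice. Its values were lower with vesicles without overlap in either setting, as for 23.1% of all genes under oil and 20.0% under CCl4. Its log2 fold changes were -0.54 (SE 0.17, limma adjusted p = 0.140) under oil and -0.59 (SE 0.17, adjusted p = 0.0506) under CCl4. The latter lay at the threshold, and over 16 alternatives the adjusted p ran from 0.0185 with DESeq2 to 0.200 without CCl4 replicate 3. It was under 0.05 in 6 of them, among these the fit blocked on replicate number (0.0393) and edgeR (0.0480), and not when any single mouse was left out. Under oil the log2 fold change of Gpihbp1 was -0.28 when scaled by the reads of the table. For Flt1, a receptor of VEGF, the log2 fold changes were -0.45 (adjusted p = 0.171) and -0.39 (adjusted p = 0.219). Tek, the angiopoietin receptor, and Cd93 and Cd34, surface proteins of endothelium, had values from -0.22 to -0.10 under oil and from -0.40 to -0.18 under CCl4, and under oil these 3 turned positive when scaled by the reads of the table.

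Of 27 markers of liver sinusoidal endothelium, 5 were in the table. None passed the limma test under CCl4 or under oil, against 5.67% and 0.228% of all genes. At an unadjusted p under 0.05 there were 4 under oil, against 21.7% of all genes, and 1 under CCl4, against 15.9%. Neither edgeR nor DESeq2 called any under oil, against 0.00% and 2.93% of all genes. Under CCl4 DESeq2 called 1, against 8.72%, and edgeR called 0, against 6.61%. The median log2 fold change was -0.46 under oil and -0.25 under CCl4. Mrc1, a mannose receptor that clears glycoproteins and is also made by macrophages, had 3260.4, 3064.8 and 3017.0 normalised counts in oil and 2142.1, 2518.3 and 2168.5 in oil + EVNorm mice, with a log2 fold change of -0.46 (limma adjusted p = 0.146), which was -0.20 when scaled by the reads of the table. Under CCl4 it had 2270.5, 2138.0 and 2117.0 without and 1757.3, 1389.0 and 1585.1 with vesicles, a log2 fold change of -0.47 (limma adjusted p = 0.0736). Over 16 alternatives that adjusted p ran from 0.0281 with only the compared groups to 0.287 without CCl4 + EVNorm replicate 2, and it was under 0.05 in 2. F8, the coagulation factor made by sinusoidal endothelium, and the lectins Clec4g and Fcna had log2 fold changes from -0.54 to -0.43 under oil and from -0.28 to -0.18 under CCl4, and under oil from -0.28 to -0.17 when scaled by the reads of the table. Lifr, a cytokine receptor that hepatocytes also make, had 0.24 (adjusted p = 0.663) under CCl4.

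**Figure D3:**
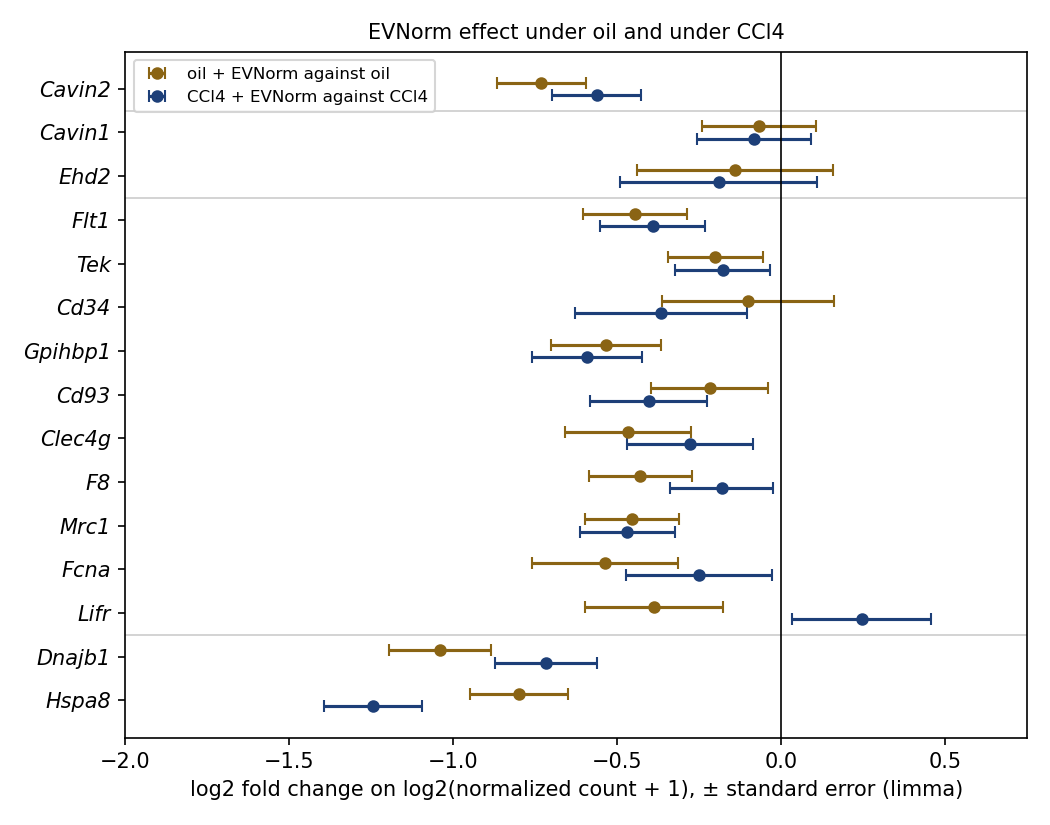
Log2 fold changes with vesicles under oil (brown) and under CCl4 (blue) on the x axis, with bars of ± 1 SE from limma, for Cavin2, the caveolar genes Cavin1 and Ehd2, endothelial and sinusoidal markers, and the heat shock genes Dnajb1 and Hspa8. Cavin1 and Ehd2 lie within 1 SE of 0, all endothelial markers except Lifr under CCl4 lie below 0, and Cavin2 lies at -0.73 and -0.56.

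The summed level of the 5 endothelial markers in the table ranged from 2095 to 2334 normalised counts in oil, 1714 to 1876 in oil + EVNorm, 1903 to 2104 in CCl4 and 1459 to 1647 in CCl4 + EVNorm mice, with no marker at 0 in any library. With the authors' size factors it was thus lower with vesicles, without overlap, in both settings. Scaled by the reads of the table, an alternative chosen after seeing the data, the sum overlapped under oil (1759 to 2000.0 without and 1714 to 1946 with vesicles) and stayed apart under CCl4 (2323 to 2694 and 1863 to 2245). The ratio of Cavin2 to the sum does not depend on this scaling. Cavin2 per 100 counts of this sum was 28.4 to 29.7 in oil and 18.9 to 24.4 in oil + EVNorm mice. It was 21.1 to 23.7 in CCl4 and 17.8 to 20.0 in CCl4 + EVNorm mice, and so did not overlap in either setting. This ratio and those that follow hold the Cavin2 values on which the gene was chosen. They are given as a description, and nothing is read from a lack of overlap. For the 5 sinusoidal markers the summed level was 20331 to 26281 in oil and 15773 to 21746 in oil + EVNorm mice, and 13521 to 15207 in CCl4 and 14248 to 16739 in CCl4 + EVNorm mice, overlapping in both settings. Per 100 counts of it Cavin2 was lower with vesicles without overlap, at 2.47 to 2.95 in oil and 2.01 to 2.24 in oil + EVNorm, and at 2.93 to 3.11 in CCl4 and 1.75 to 2.08 in CCl4 + EVNorm mice.

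Lifr made up most of that sum, and without it the picture was another in both settings. The other 4 sinusoidal markers summed to 7570 to 7781 in oil and 5147 to 6240 in oil + EVNorm mice, and to 4774 to 5184 in CCl4 and 3649 to 4293 in CCl4 + EVNorm mice. This sum was thus lower with vesicles, without overlap, in both settings. Per 100 counts of these, Cavin2 overlapped between oil (7.71 to 9.16) and oil + EVNorm (5.67 to 8.03). It was 7.75 to 9.65 in CCl4 and 7.17 to 7.73 in CCl4 + EVNorm mice, which nearly touched. The part of the endothelial markers in the difference of Cavin2 was not tested.

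Markers of other cell types that move with the groups are given for the same reason. Of 23 genes of stellate cells and myofibroblasts, 11 were in the table and 4 were lower with vesicles under CCl4 by the limma test, against 5.16% of all genes. Under oil none was, with 3 at an unadjusted p under 0.05, against 21.7% of all genes. By edgeR and by DESeq2 0 were called under oil, against 0.00% and 2.93%. The 4 genes lower under CCl4 were the matrix genes Reln (log2 fold change -0.75, adjusted p = 0.00354), Lum (-1.01, 0.00327), Postn (-1.10, 0.00451) and Col3a1 (-0.96, 0.0331). The call of Col3a1 was lost without a trend (adjusted p = 0.0714) and when any single mouse other than CCl4 replicate 2 was left out (0.0805 to 0.141). The 11 genes summed to 20519 to 25327 normalised counts in CCl4 and 12635 to 14652 in CCl4 + EVNorm mice. Reln and Col3a1, both among the called genes, made up most of this sum, with CCl4 means of 8459 and 8706. The list genes not called had log2 fold changes under CCl4 from -0.44 (Col1a2) to 0.03 (Ecm1), with limma adjusted p of 0.391 (Hand2) or more. Of 19 macrophage genes 4 were in the table, and lysozyme, Lyz2, was lower under CCl4 (-1.23, adjusted p = 0.00476), against 5.16% of all genes. None was called under oil (1 unadjusted, against 21.7%, and 0 by edgeR and by DESeq2, against 0.00% and 2.93%). Of 24 hepatocyte genes 5 were in the table, and none passed in either comparison, against 5.67% of all genes under CCl4 and 0.228% under oil. Unadjusted there were 0, against 15.9% and 21.7%. By edgeR there were 0, against 6.61% and 0.00%, and by DESeq2 0, against 8.72% and 2.93%. The medians were 0.03 under CCl4 and -0.19 under oil. No gene of 15 listed for platelets, from which Cavin2 was first isolated, was in the table. Their part in the difference of Cavin2 was not tested.

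The Cavin2 protein binds protein kinase C and phosphatidylserine. Among genes of protein kinase C or of phosphatidylserine binding, 3 of 17 were in the table and none of them encodes a protein kinase C. Their binding to Cavin2 itself was not examined. Under CCl4 3 had an unadjusted limma p under 0.05, against 15.9% of all genes. Anxa2, a phosphatidylserine-binding annexin, was lower with vesicles under CCl4 (log2 fold change -1.05, limma adjusted p = 0.0125), as were 5.16% of all genes. The call was lost without CCl4 + EVNorm replicate 1 (0.0574) or CCl4 replicate 2 (0.0615). No gene of the list was called under oil (1 unadjusted, against 21.7% of all genes, and 0 by edgeR and by DESeq2, against 0.00% and 2.93%). Of 22 genes of clathrin-coated pits, the other main route of endocytosis, 3 were in the table. None was called in either comparison, against 5.67% of all genes under CCl4 and 0.228% under oil. Unadjusted there were 0 under CCl4, against 15.9%, and 1 under oil, against 21.7%. By edgeR there were 0, against 6.61% under CCl4 and 0.00% under oil, and by DESeq2 0, against 8.72% and 2.93%.

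Cavin2 was set beside 2 heat shock genes that, like it, had lower values with vesicles in both settings. Dnajb1 (chromosome 8, 83608193 to 83612653) encodes a co-chaperone that stimulates Hsp70 proteins, and Hspa8 (chromosome 9, 40800984 to 40810087) the constitutive member of that family. Both were picked after their values were seen, for this same pattern, so their values are a description with no test. Dnajb1 had 1618.6, 1257.4 and 1222.3 normalised counts in oil and 700.7, 712.1 and 570.9 in oil + EVNorm mice, a log2 fold change of -1.04 (SE 0.16). Under CCl4 it had 539.0, 479.8 and 571.9 without and 332.4, 282.2 and 353.0 with vesicles, a log2 fold change of -0.72 (SE 0.16). The groups did not overlap in either setting, as for Cavin2, and such lower values were found for 23.1% of all genes under oil and 20.0% under CCl4. The Dnajb1 difference was larger under oil, by 0.32 (SE 0.22).

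Hspa8 had 22248.3, 22272.7 and 22341.5 normalised counts in oil and 12684.8, 13589.5 and 12178.7 in oil + EVNorm mice, a log2 fold change of -0.80 (SE 0.15). Under CCl4 the values were 11412.3, 10570.2 and 11702.2 without and 6055.0, 3789.9 and 4624.7 with vesicles, a log2 fold change of -1.24 (SE 0.15). Hspa8 thus differed more under CCl4, by -0.44 (SE 0.21). For Cavin2 the difference between settings was within 1 SE of 0 and its sign depended on the scaling, so no contrast between the genes is read from this. Reads of Hspa8 may be shared with near-identical processed copies.

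Genes whose level over the 15 libraries was most like that of Cavin2 were ranked by Pearson's r of log2(normalised count + 1), among 3365 genes with a mean of at least 10. The median r was 0.28, and 39 genes had an r of at least 0.9. The points share the size factors of the libraries and fall into 5 groups, and r is given as a description. Genes ranked highest follow the group levels of Cavin2 by the way they were picked. Highest were Gpihbp1 (0.945), Apoc3 (0.944), an apolipoprotein that inhibits lipoprotein lipase, Tinagl1 (0.942), an extracellular matrix glycoprotein, and Hecw2 (0.935), a ubiquitin ligase. They were followed by Prdx4 (0.935), a peroxiredoxin of the endoplasmic reticulum, Cct7 (0.929), a chaperonin subunit, Mrc1 (0.925), thioredoxin Txn1 (0.923), Commd3 (0.921) and Uchl3 (0.920), a deubiquitinase.

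Tinagl1 had means of 618 ± 188 normalised counts in untreated, 477 ± 90.8 in oil, 269.9 ± 42.9 in oil + EVNorm, 298.4 ± 39.9 in CCl4 and 225 ± 36.8 in CCl4 + EVNorm mice (SD, n = 3 each), the same order as for Cavin2. Among the other genes most like Cavin2 only Hecw2 shared this order, and the rest had a higher mean in oil + EVNorm than in CCl4 mice. Within groups, with each group's mean removed, the highest r were those of Pcp4l1 (0.888), Flnc (0.885), an actin crosslinker of muscle, Grb10 (0.875), an adaptor of insulin receptor signalling, Itga8 (0.875), an integrin of stellate cells and smooth muscle, and Col1a1 (0.865), the main collagen of scar, against a median of 0.08 over genes. Flnc had only 1.1 to 3.6 normalised counts in oil and 2.3 to 3.6 in oil + EVNorm mice, where counting error is large. Untreated mice spread widely for Flnc (2.9 to 17.2), Pcp4l1 (61.5 to 201.2) and Col1a1 (40.4 to 306.2), in the mouse order of Cavin2. How far these r rest on the untreated mice was not tested.

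**Figure D4:**
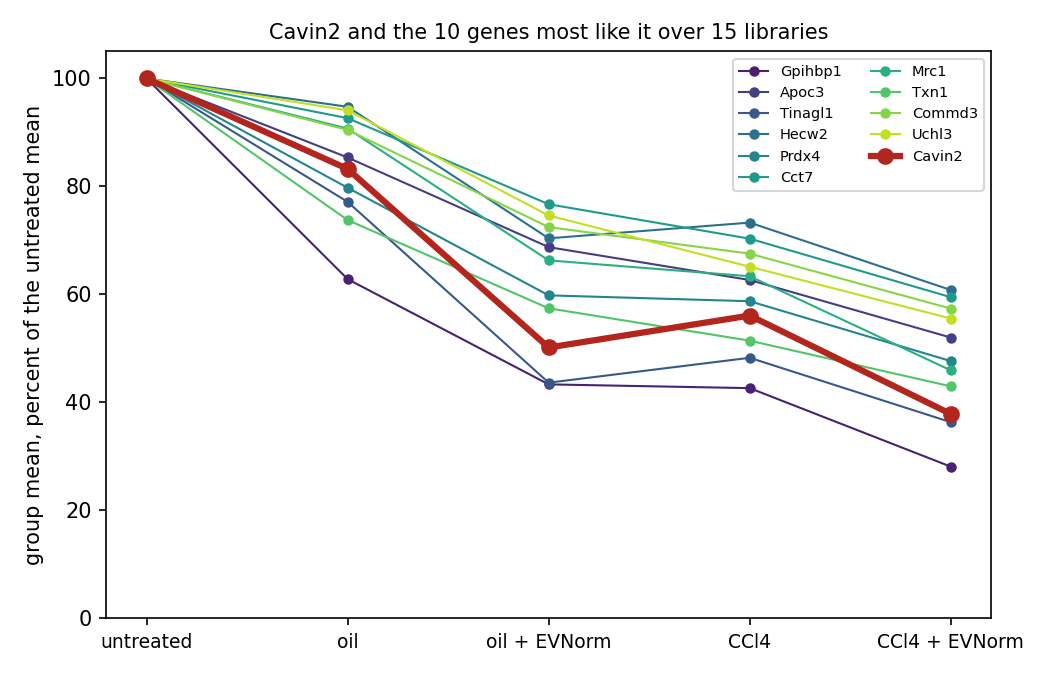
Group means of Cavin2 (thick red line) and of the 10 genes most like it over 15 libraries, as percent of each gene's untreated mean (y axis, from 0), by group (x axis), with lines joining means of 3 mice and no error shown. Each of these genes is highest in untreated and lowest in CCl4 + EVNorm liver, where Cavin2 stands at 37.9%. The genes were picked for likeness to Cavin2 in these same libraries, so nothing is read from the shared pattern.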

How the data were processed

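Whole-liver RNA came from 15 mice, taken as separate animals from the study's account of its groups. After removal of ribosomal RNA, stranded libraries with molecular identifiers in their adapters were prepared. The use of the identifiers for removing duplicates is not given in the sources used here. The methods and the submitters' processing notes name STAR 2.6.0c for alignment, GRCm38.p3 as the genome, featureCounts for counting and DESeq2 for testing. The deposited table gives a signal for each gene and library, namely read counts that the authors divided by a size factor and wrote to 1 decimal. It holds only genes that the authors called between CCl4 and oil. Their columns for that comparison (mean, fold change with standard error, test statistic, p-value and adjusted value) were not used.

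Whole reads were recovered from the steps of the values, and 100% came out whole within 0.05 in every library. They summed to between 6106856 and 11055679 reads a library over the table, and Poisson intervals at 95% cover counting error only. Tests used limma 3.58.1 (R 4.3.3) on log2(normalized count + 1), with 5 group means over all 15 libraries, a mean-variance trend, two-sided tests and Benjamini-Hochberg adjustment over all genes of the table at 0.05, without a filter. The scripts were tested on simulated data. Fold changes on this scale understate those of low genes. Alternatives were pseudocounts of 0.5 and 5, a mean of at least 10, no trend, robust moderation, a fit of the compared groups alone, a block for replicate number, edgeR 4.0.16 with TMM and DESeq2 1.42.0 on the recovered reads, scaling by the reads of the table, and leaving out each library.

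Text named Cavin2, caveolar genes in the table, members of the other lists that passed the test or were most abundant, and the 10 and 5 genes most like Cavin2. Cavin2 and all lists were chosen with earlier results of these data known. Replicate numbers are shared by all groups, and neither labels nor methods say what they mark. Deviations of same-numbered CCl4 and CCl4 + EVNorm mice correlated at 0.23, 0.175 and 0.169, so the numbers may pair these mice. The main fit had no block, so its tests ignore any such pairing, and the fit with a block was an alternative. Correlations were 0.124, 0.048 and 0.157 between untreated and oil mice, and 0.035, -0.013 and 0.059 between oil and CCl4 mice. Between oil and oil + EVNorm mice the correlations were 0.061, -0.061 and 0.037. Correlations of so few mice can neither show nor exclude pairing. Oil replicates 2 and 3 differed less than other pairs (mean chi-square per gene 2.17, against 31.4 or more) but beyond sampling noise, and were kept as separate samples. Whether they came from separate mice cannot be told from the values. If they did not, the SEs of comparisons with oil are too small. With both averaged, the log2 fold change of Cavin2 with vesicles under oil was -0.71 (SE 0.16). Coordinates are those of GENCODE on GRCm38.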

Additional observations from a re-analysis of the deposited data

How the results depend on the processing

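The log2 fold change of Cavin2 with vesicles under CCl4 stayed between -0.62 and -0.50 over 16 alternatives, from -0.62 to -0.52 when single mice were left out. Under oil it stayed between -0.82 and -0.48, from -0.82 to -0.66 when single mice were left out, and -0.48 was the value when scaled by the reads of the table. The difference between the vesicle effects ran from 0.10 to 0.25 without single mice and was -0.03 (-0.0251) when scaled by the reads of the table. CCl4 against oil was -0.39 with edgeR and TMM scaling, 0.00 (0.0031) when scaled by the reads of the table, and from -0.62 to -0.51 without single mice. Oil against untreated failed the test under all 17 alternatives (adjusted p from 0.0904 to 0.735).

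With the replicate block the Cavin2 values were unchanged (-0.56 under CCl4, SE 0.13), endothelial calls under CCl4 went from 0 to 1, genes called under oil went from 8 to 24, and under CCl4 from 199 to 214. Endothelial calls under CCl4 were also 1 with a pseudocount of 5, the filter, the robust prior, only the groups compared, and edgeR. With DESeq2 there were 2. These calls are out of 5 endothelial and 5 sinusoidal markers in the table. Calls over all genes rose as well, from 199 to 241 with a pseudocount of 5 and 293 with only the groups compared. They were 232 (6.61%) with edgeR and 306 (8.72%) with DESeq2, and stayed near 199 with the filter and the robust prior. Whether the markers were called more often than all genes was not tested. Over all genes under CCl4, 199 calls became 306 with DESeq2 and 94 to 151 without single mice, namely 94 without CCl4 + EVNorm replicate 3, 122 without its replicate 2, 108 without CCl4 replicate 1 and 118 without CCl4 replicate 2. Under oil, 8 calls (3 lower, 5 higher) became 2 with a pseudocount of 5, 5 (all lower) with only the groups compared, 0 with edgeR, 103 (28 lower, 75 higher) with DESeq2, 87 (2 lower, 85 higher) when scaled by the reads of the table, and 0 with oil replicates 2 and 3 averaged, an alternative chosen after seeing the data. Without single mice they ran from 0 to 20. The fits without any 1 of the other 5 libraries gave 0 or 1, and 20 was without oil + EVNorm replicate 1. Causes were not tested. Of 924 values of named genes under alternatives, 9 gained and 29 lost a call and 886 kept their side of the threshold. The sign changed in 10, all for Cavin1, Ehd2, Tek, Cd34 or Cd93 under oil and none of them called. Reads behind Cavin2, 326 to 720 a library, and 3 mice a group limit the precision.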
